A study of Mus musculus with 4 samples.

Results

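The cells described here are the Isl1-positive mesoderm of gastruloids at day 5 of culture, which numbered 518 of the 31330 cells in the series. They were chosen by their own measured transcripts. A cell of the day 5 library was taken if it held 2000 or more unique molecular identifiers (UMIs, each standing for 1 captured transcript) and drew under 20% of them from mitochondrial genes. It further needed 2 or more UMIs of Isl1, under 3 of the epithelial gene Epcam, 0 of the endothelial gene Cdh5 and under 3 of the pluripotency gene Pou5f1. Of 7794 day 5 cells, 7408 passed the limits on depth and mitochondrial share, 5382 also passed the Epcam, Cdh5 and Pou5f1 limits, and the 518 were 9.62% of these (exact binomial 95% interval 8.85 to 10.4%). They were compared with the 3898 cells within the same limits that had 0 Isl1 UMIs, and 966 cells with 1 Isl1 UMI were left between the sets.

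Gastruloids are aggregates of mouse embryonic stem cells that break symmetry and form derivatives of the germ layers. Those studied here came from the wild-type Zx1 line, received an early pulse of the Wnt agonist Chiron, and from day 4 were given bFGF, VEGF and ascorbic acid. Days 5 and 6 lay within the use of these factors. They were withdrawn well before day 11, so that day also differs from days 5 and 6 in its medium. Gastruloids were pooled at days 4, 5, 6 and 11 and each day gave 1 droplet-based 3′ single-cell library, with every cell in the day 5 comparison taken from the same culture and the same treatment. With 1 library for each day there is no replicate, so no test between conditions was possible and no p-value is given. Intervals on values cover counting error only, and a difference between days may belong to the library. A cell line grown as pooled aggregates has no animal-to-animal variation to sample, and the spread between separate gastruloids was not analysed here.

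Isl1 encodes a LIM-homeodomain transcription factor. In the mouse embryo it is best known in the second heart field and pharyngeal mesoderm, progenitors that lie behind the early heart tube, keep dividing while the tube differentiates, and later add to the outflow tract, right ventricle and atria, and to muscles of the head. The same factor also acts in motor neurons, pancreatic endoderm and hindlimb mesenchyme, so that Isl1 transcripts alone do not name a cell type. Hand1, a basic helix-loop-helix factor of early heart, lateral plate and extraembryonic mesoderm, and Gata6, a zinc-finger factor of cardiac mesoderm and endoderm, were the other genes that marked these cells by name.

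The day 5 library held 236714826 UMIs, and the 4 libraries between 149169498 and that number. The Isl1-positive cells were deeper than the cells at 0, with a median of 34359 UMIs (quartiles 26862 and 46115) against 26484 (quartiles 20746 and 33208), and 5484 against 4812 detected genes. Mitochondrial transcripts took a median of 2.69% and 2.71% of the UMIs, and ribosomal protein genes 32.01% and 32.74%. A deeper cell passes a limit of 2 UMIs more easily. Levels are therefore given as counts per 1000000 (CPM), the UMIs of a gene summed over a set of cells and divided by all UMIs of that set. Where it matters, the ratio is also given against Isl1 0 cells weighted to the depths of the positive cells. Of the 518 barcodes, 2 also occurred in the day 4 library and 1 in the day 6 library.

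Isl1 was a low transcript, and the selected cells held 1404 of the 2370 Isl1 UMIs found within the limits. Exactly 2 UMIs were found in 305 cells, 3 in 120 and 4 or more in 93, and the highest count was 12. The pooled level was 69.7 CPM in the Isl1-positive cells. Another 144 day 5 cells had 2 or more Isl1 UMIs and were left out by the other limits, 134 of them by Epcam, 14 by Cdh5 and 11 by Pou5f1, with some failing more than 1. Epcam-positive cells as a class carried Isl1 at 9.88 CPM. The gene lies on chromosome 13 from 116298281 to 116309689 on the minus strand (mm10, GENCODE vM21).

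**Figure D1:**
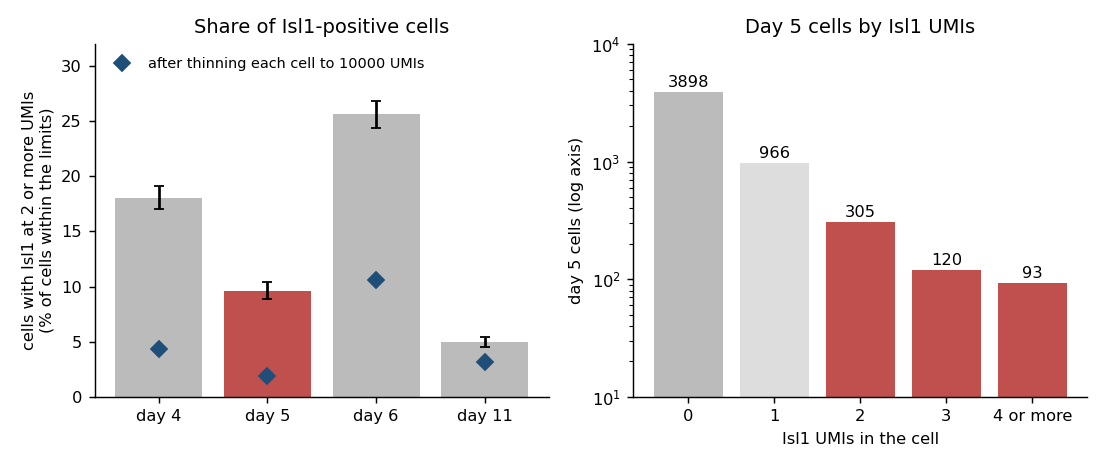
Left, share of cells within the limits that had 2 or more Isl1 UMIs in each library (bars, with exact binomial 95% intervals) and the same after cells of 10000 or more UMIs were thinned to that number, with shallower cells left out (diamonds); day 5 stands at 9.62% and 1.88%. Right, number of day 5 cells within the limits by Isl1 UMIs, on a log axis, with the selected cells in red.

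The same limits gave 988, 1298 and 401 cells on days 4, 6 and 11. These were 18.1% (17.04 to 19.10%), 25.6% (24.4 to 26.8%) and 4.96% (4.497 to 5.456%) of the cells within the limits, so day 5 lay below both of its neighbours. After thinning to 10000 UMIs the shares were 4.33%, 1.88%, 10.6% and 3.20% for days 4, 5, 6 and 11. Shallower cells were left out, so that 5363 of 5473, 5040 of 5382, 4876 of 5068 and 5127 of 8084 cells entered on those days. Thinning placed day 11 above day 5, the reverse of the order in the full counts, and the part of depth and of the cells left out was not tested. The median depth of cells within the limits was 27558 UMIs at day 5 and 11715 at day 11. The interval for day 5 after thinning, 1.53 to 2.30%, did not overlap that of any other day.

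The label was checked against its markers. Hand1 was found in 487 of the 518 cells with a pooled level of 307 CPM, against 249 CPM in the Isl1 0 cells, a ratio of 1.24 (95% interval 1.20 to 1.27). Per cell, the median Hand1 level was 249 CPM and the highest count was 69 UMIs. Gata6 was found in 445 of the 518 cells at 85.1 CPM against 51.7 CPM, a ratio of 1.64 (1.56 to 1.74). After thinning each cell to 5000 UMIs, Hand1 was seen in 66.6% of the Isl1-positive cells (62.4 to 70.7%) and 51.8% of the Isl1 0 cells (50.2 to 53.4%). The corresponding shares for Gata6 were 30.7% and 20.7%. In the 448 day 5 cells with 3 or more Pou5f1 UMIs, which pluripotent cells would supply, Hand1 was seen in 11.8% and Gata6 in 6.47%, at a median depth of 34622 UMIs, close to that of the Isl1-positive cells. Both markers were thus present well above that share.

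Of 9143 genes with a mean level of at least 5 CPM over the 2 sets, 97.8% lay within 1.5-fold and the median ratio was 1.01. In Isl1-positive cells 23 genes were at least 2-fold higher, which is 0.252% of the genes compared, and 30 were at a ratio of 0.5 or less, which is 0.328%. The 4 genes used by the selection are not counted. A 2-fold limit here is a rule of size and carries no test.

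Among the transcription factors, Tlx1 showed the highest ratio of the 23. This homeobox gene, best known for spleen and branchial arch development, stood at 13.6 CPM in Isl1-positive cells and 3.82 CPM in the Isl1 0 cells, a ratio of 3.57 (3.05 to 4.17). It was found in 117 of the 518 cells, and the 10 cells with most Tlx1 held 26.2% of its UMIs. Mef2c, a MADS-box activator of cardiac and skeletal muscle genes and an Isl1 target in the second heart field, was at 12.1 against 3.97 CPM, a ratio of 3.04 (2.58 to 3.56). Mef2c was found in 127 of the cells. Endothelial cells also express it, and day 5 cells with 3 or more Cdh5 UMIs carried it at 22.8 CPM. Hopx, a small homeodomain protein of cardiac progenitors, was at 13.9 against 6.43 CPM, a ratio of 2.16 (1.87 to 2.49), and it too was high in the Cdh5-positive cells, at 30.8 CPM. Tlx1, by contrast, was at 0.616 CPM there. After thinning to 5000 UMIs, Mef2c was seen in 5.02% of the Isl1-positive cells, 1.58% of the Isl1 0 cells and 0 of the 448 cells with 3 or more Pou5f1 UMIs, which allows a share of up to 0.820% of cells with a Mef2c UMI at that depth. In the full counts those 448 cells held Mef2c at 0.270 CPM.

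The Iroquois homeobox genes, which pattern heart chambers, limb and neural tissue, were higher together. Irx1 was at 29.2 against 13.9 CPM (ratio 2.10, 1.91 to 2.32) and Irx2 at 13.2 against 6.34 CPM (2.09, 1.81 to 2.41). Irx3 was at 63.7 against 34.8 CPM, a ratio of 1.83 (1.72 to 1.95), and Irx5 at 11.4 against 6.10 CPM, a ratio of 1.87 (1.60 to 2.18). The former pair lies on chromosome 13 with 665 kb between the genes, and Irx3 and Irx5 lie on chromosome 8 with 556 kb between them. Tlx1 and Kazald1 are likewise neighbours, 71.4 kb apart on chromosome 19 with no annotated gene between them, and Kazald1, a secreted protein of the insulin-like growth factor binding family, had a ratio of 2.56 (2.09 to 3.11).

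Of 14 measured core cardiac regulators, Mef2c and Hopx passed the 2-fold limit and none was at 0.5 or less, with a median ratio of 1.23 beside 1.01 for all genes. Hand2, the partner of Hand1 in the second heart field and limb, came close, at 118 against 61.3 CPM (1.92, 1.84 to 2.02). Its overlapping antisense transcript Hand2os1 was at 54.1 against 30.1 CPM, and since the strand setting of the counting is not given in the sources used here, reads of the 2 may be shared. Gata4 differed little, at 11.9 against 9.83 CPM (1.21, 1.04 to 1.39), as did Tbx3, at 49.2 against 46.0 CPM (1.07, 0.998 to 1.15). Nkx2-5, the homeobox gene of committed heart cells, was found in 5 of the 518 cells with 1 UMI each, or 0.248 CPM against 0.325 CPM. Tbx5, a gene of the first heart field and posterior second heart field, was at 2.03 against 1.61 CPM (1.26, 0.874 to 1.78). At this depth neither was shown to differ.

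The list of cardiopharyngeal and second heart field regulators had 15 members above the level limit, with Mef2c alone past 2-fold, none at 0.5 or less, and a median ratio of 1.20. Foxc2 (6.30 against 3.64 CPM, ratio 1.73, 1.41 to 2.12), Foxc1 (1.61, 1.39 to 1.85) and Osr1 (1.61, 1.40 to 1.83) were higher, the first pair forkhead factors of head and paraxial mesoderm and the last a zinc-finger gene of splanchnic and intermediate mesoderm. The TALE homeobox genes Meis1 and Meis2 were at ratios of 1.47 and 1.44. Foxf1 (9.97 against 14.7 CPM, 0.679, 0.583 to 0.786), a forkhead gene of splanchnic mesoderm, was lower. Regulators that mark pharyngeal muscle progenitors gave few UMIs in both sets. Tbx1 gave 10 UMIs in 7 of the 518 cells (0.496 against 0.788 CPM), Tcf21 27 UMIs in 21 cells (1.34 against 1.104 CPM), Lhx2 53 UMIs in 52 cells (2.63 against 2.91 CPM) and Msc none. After thinning to 5000 UMIs, Tbx1 was seen in 0.579% of the Isl1-positive cells (0.120 to 1.68%). The share was 0.6696% (0.138 to 1.94%) of the cells with 3 or more Pou5f1 UMIs, and each share rests on 3 cells. The Pou5f1 cells held Tbx1 at 1.19 CPM in the full counts, so they give no background level for it.

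Contractile genes did not share these differences. Of 12 measured sarcomere and contractile genes 1 passed the 2-fold limit, Nebl, whose product binds actin at the Z-disc (7.14 against 3.27 CPM, ratio 2.19, 1.79 to 2.66). The median ratio of the 12 was 0.846, and 1.04 against depth-weighted Isl1 0 cells. Myl7, the atrial myosin light chain, was at 10.3 against 16.0 CPM (0.642, 0.553 to 0.742), and it was found in 19.1% of Isl1-positive and 19.9% of Isl1 0 cells. Tnnc1, cardiac troponin C, was at 9.28 against 11.6 CPM (0.799, 0.681 to 0.932), and Tnni1, slow troponin I, at 26.9 against 24.3 CPM (1.11, 1.01 to 1.21). Actc1, the cardiac actin, was at 4.91 against 9.77 CPM, but 10 cells held 79.8% of its UMIs in the positive set and the ratio of 0.503 became 1.05 against depth-weighted Isl1 0 cells. The broadly used tropomyosin gene Tpm1 was at 683 against 528 CPM, a ratio of 1.29.

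**Figure D2:**
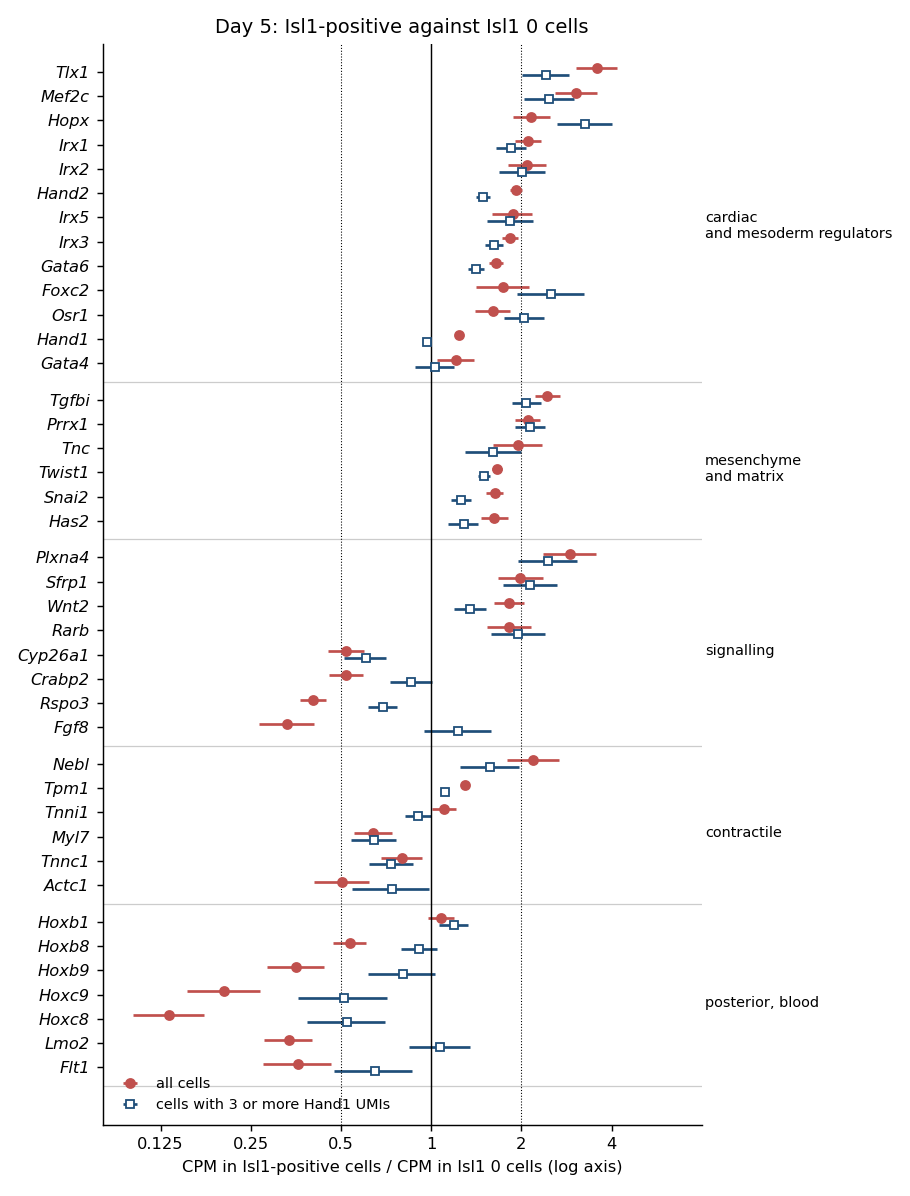
Ratio of pooled CPM in day 5 Isl1-positive cells to that in Isl1 0 cells for 40 genes, on a log axis, in all cells (red) and in cells with 3 or more Hand1 UMIs (open blue squares); bars are 95% counting intervals and dotted lines mark 2-fold. Regulators such as Tlx1, Mef2c and Hopx stayed at or above 2-fold among Hand1-positive cells. Hoxb9 moved from 0.354 to 0.803, Hoxc8 from 0.134 to 0.525 and Lmo2 from 0.334 to 1.07.

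Genes of mesenchyme, matrix and adhesion were mostly a little higher. Of 25 measured, 7 were at least 1.5-fold higher and none was 1.5-fold lower, with a median ratio of 1.28. Prrx1, a homeobox gene of limb and craniofacial mesenchyme, was past 2-fold at 29.0 against 13.8 CPM (2.10, 1.91 to 2.32). Twist1, the helix-loop-helix factor that maintains mesenchyme, was at 161 against 97.4 CPM (1.66, 1.59 to 1.72), Snai2 at 53.4 against 32.8 CPM (1.63, 1.52 to 1.74) and Has2, which makes hyaluronan, at 24.2 against 14.9 CPM (1.63, 1.47 to 1.80). Tgfbi, a secreted collagen-binding protein outside this list, was at 29.7 against 12.2 CPM (2.44, 2.21 to 2.69) and was found in 260 of the 518 cells.

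Other genes past 2-fold were Smpd3, a neutral sphingomyelinase (3.05, 2.60 to 3.59), Plxna4, a semaphorin receptor (2.91, 2.37 to 3.56), Nfib, a nuclear factor of lung and brain (2.55, 2.22 to 2.91), Rbm24, a splicing regulator of heart muscle (2.42, 2.11 to 2.78), and Ptpre, a phosphatase (2.29, 2.06 to 2.55). Pyy, a gut peptide hormone, reached 25.4 against 10.4 CPM (2.43, 2.18 to 2.70), but only 67 cells held it and 10 of them had 55.2% of its UMIs. The remaining members of the 23 were Frat2, Daam2, Adam19, Irf5, Mcub, Rps6ka2, Ppp1r14c and Mme, with ratios from 2.04 to 2.40. Just under the limit stood Rgs5, a regulator of G-protein signalling in mural cells (50.6 against 25.4 CPM, 1.99), Gfra2, a receptor for neurturin (25.6 against 13.2 CPM, 1.93), and Runx1t1, a corepressor (38.7 against 20.3 CPM, 1.91).

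Signalling genes were described from lists of the main pathways. In the Wnt list, 23 genes were measured, 0 passed 2-fold and 1, Rspo3, was at 0.5 or less, with a median of 1.001. Wnt2, a ligand of the early heart field and lung mesoderm, was at 20.1 against 11.0 CPM (1.82, 1.62 to 2.04), and Sfrp1, a secreted Wnt antagonist, at 9.08 against 4.57 CPM (1.99, 1.67 to 2.36). Rspo3, which strengthens Wnt signalling, was at 21.2 against 52.5 CPM (0.405, 0.366 to 0.446), whereas the general target Axin2 was at 15.3 against 17.4 CPM (0.881, 0.779 to 0.994). In the retinoic acid list of 10 measured genes the median was 0.791. The receptor gene Rarb was higher (9.62 against 5.28 CPM, 1.82, 1.54 to 2.15), and the binding protein gene Crabp2 (12.4 against 23.8 CPM, 0.520) and the degrading enzyme Cyp26a1 (10.9 against 20.9 CPM, 0.521, 0.451 to 0.599) were lower.

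For the FGF pathway, 17 genes had a median ratio of 1.14. The ligand Fgf8 was at 4.71 against 14.2 CPM (0.331, 0.266 to 0.407). Among cells with 3 or more Hand1 UMIs its ratio was 1.23, with 4.59 CPM in the Isl1-positive cells. In all cells the feedback inhibitor Spry1 was at 18.8 against 11.5 CPM (1.64, 1.45 to 1.84). Fgf10, a ligand made by second heart field cells, was at 5.36 against 4.71 CPM (1.14, 0.915 to 1.40), a difference within the counting interval. The 18 BMP pathway genes all lay within 1.5-fold, with a median of 1.15. Bmp4 was at 98.2 against 83.0 CPM (1.18) and the target genes Id1, Id2 and Msx1 had ratios of 1.15, 1.22 and 1.02. Hedgehog (6 genes, median 1.03) and Notch (6 genes, median 0.880) lists held no measured gene past 2-fold either way. In the Notch list the receptor gene Notch1 was at 9.33 against 15.9 CPM (0.585, 0.500 to 0.680) and the ligand gene Jag2 at 3.62 against 6.73 CPM (0.539, 0.417 to 0.686). The feedback gene Nrarp, at 1.79 against 5.14 CPM (0.348, 0.241 to 0.487), was under the level limit.

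The lower genes were read by list, and many stood outside the Hox, streak, endothelial and endoderm lists. Examples are Ctla2a at 3.18 against 19.7 CPM (0.161, 0.124 to 0.206), Krt15 (0.295) and Tcea3 (0.369). Of 20 measured Hox genes 6 were at 0.5 or less and none at 2-fold or more, with a median of 0.722, and those were Hoxa5, Hoxa7, Hoxb9, Hoxc6, Hoxc8 and Hoxc9. An alternative chosen after seeing the data left out cells holding a UMI of T, Hoxa7, Hoxa9, Hoxc8, Hoxc9, Kdr, Tal1 or Etv2. It kept 256 of the 518 and 1926 of the 3898 cells, and gives no ratio for Hoxa7, Hoxc8 and Hoxc9. The Hox median was then 1.13. Since cells were removed by their Hox UMIs, the median can move by construction and does not show where the difference lies. Among cells with 3 or more Hand1 UMIs the Hox median was 1.095 over 13 genes. This is a smaller set, since several of the lower genes fell under the level limit there and left the median. Their ratios were 0.4995 for Hoxa7, 0.511 for Hoxc9, 0.520 for Hoxc6, 0.525 for Hoxc8 and 0.730 for Hoxa5. Hoxb1 and Hoxb2, anterior genes, had ratios of 1.08 and 1.099, and Hoxb5 and Hoxb7 of 1.15 and 0.877. Hoxc8 was at 2.83 against 21.1 CPM (0.134, 0.101 to 0.174), Hoxc6 at 1.79 against 9.72 CPM (0.184), Hoxa7 at 1.98 against 9.81 CPM (0.202) and Hoxc9 at 2.68 against 13.1 CPM (0.204). Hoxc8 was seen in 23 of the 518 cells, or 4.44%, against 13.6% of the Isl1 0 cells. The noncoding Hoxaas3 from the HoxA cluster was at 14.3 against 61.3 CPM (0.234, 0.207 to 0.263), and reads of overlapping genes on the opposite strand may be shared with it. Of 6 measured streak and tailbud genes 4 were at 0.5 or less, 3 of them the posterior Hox genes Hoxb9, Hoxc8 and Hoxc9 and the fourth Fgf8. Hoxa9 (0.695 against 8.71 CPM) and T (Brachyury, 1.89 against 8.08 CPM) were under the level limit and are not in those counts.

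Of 7 measured endothelial and blood genes 1 was at 0.5 or less, Lmo2, a LIM-only adaptor of blood progenitors (6.30 against 18.9 CPM, 0.334, 0.277 to 0.400), and the median was 0.741. The receptor gene Flt1 (0.359, 0.275 to 0.461) and the homeobox gene Hhex (0.387, 0.313 to 0.475) were also lower. Over the whole list of 22 markers the summed level was 156 against 237 CPM, Cdh5 was at 0 by the selection, and 4 members, Tie1, Gata1, Hba-x and Hbb-bh1, had no UMI in the Isl1-positive cells. Kdr, the VEGF receptor of vascular and cardiac progenitors, differed less, at 19.6 against 24.6 CPM (0.795, 0.714 to 0.884). The 17 endoderm markers summed to 739 against 804 CPM, of which the keratins Krt8 and Krt18 gave 419 and 219 CPM, and Foxa2 and Sox17 had 5 and 19 UMIs in the 518 cells. The part of these other cell types in the differences was not tested.

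The comparison was repeated among cells alike in Hand1. In the Isl1 0 cells, 57.3% (55.7 to 58.9%) had 3 or more Hand1 UMIs, whereas 81.3% (77.6 to 84.5%) of the Isl1-positive cells had them. When both sets were limited to such cells, 421 against 2234, the genes at 2-fold or more numbered 17 of 9055 (0.188%), and those at 0.5 or less numbered 1 (0.011%). The 1 was Pltp, a phospholipid transfer protein, at 8.78 against 18.8 CPM (0.466, 0.391 to 0.552). All 23 of the higher genes were still measured and still above 1, 15 of them at 2-fold or more. The 421 and 2234 cells belong to the sets in which the 23 were picked. A ratio that stays above 1 is thus largely given by construction and is no separate support. Of the 30 lower genes, 15 still had a mean of 5 CPM, and their median ratio was 0.688. The other 15 dropped below that level among Hand1-positive cells. The ratio of Hoxc8 in this subset was 0.525 (0.384 to 0.703) and that of Hoxaas3 0.862 (0.736 to 1.01).

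Regulators named above were also read in this subset of the same cells. Hopx was at 9.47 against 2.92 CPM (3.25, 2.63 to 4.01), Mef2c at 10.4 against 4.20 CPM (2.48, 2.05 to 2.99) and Tlx1 at 11.6 against 4.82 CPM (2.41, 2.02 to 2.88). Osr1 (2.05, 1.75 to 2.39), Sfrp1 (2.14, 1.74 to 2.63) and Foxc2 (2.51, 1.93 to 3.25) were further from 1 than in all cells. Foxc2 had a mean level under 5 CPM there and is not among the 17. Hand2 (1.49, 1.42 to 1.57) and Gata6 (1.41, 1.33 to 1.498) were closer to 1 than in all cells. Hand1 itself, at 354 against 366 CPM, was even between the sets once the limit of 3 UMIs was applied, and Foxf1 (0.567, 0.485 to 0.661) and Myl7 (0.644, 0.542 to 0.761) stayed lower.

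The levels of several genes were then read along the number of Isl1 UMIs, the measure that the selection used. At such low counts a cell can miss a UMI by chance, so that a gradient among cells and a mixture of cell types cannot be told apart. Cells with 0, 1, 2, 3 and 4 or more Isl1 UMIs had Mef2c at 3.97, 6.57, 9.77, 13.9 and 16.6 CPM. For Tlx1 the levels were 3.82, 6.97, 10.4, 15.6 and 20.8 CPM, and for Prrx1 they were 13.8, 19.2, 23.7, 32.4 and 40.4 CPM. In these 3 genes each step was upward. Median depth also climbed along this series, from 26484 UMIs at 0 to 38478 at 4 or more, and its part was not tested beyond the depth-weighted ratios, which were 3.17 for Mef2c, 3.87 for Tlx1 and 2.27 for Prrx1. Just inside the limit against just outside it, 305 cells with 2 UMIs and 966 with 1, the ratio was 1.49 for Mef2c (1.17 to 1.88) and 1.49 for Tlx1 (1.18 to 1.87), 1.17 for Gata6 (1.08 to 1.26), and 1.03 for Irx1 (0.891 to 1.19).

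Hopx was at 6.43, 7.19, 7.69 and 11.7 CPM for 0 to 3 Isl1 UMIs and then stood at 34.4 CPM (28.8 to 40.6) in the 93 cells with 4 or more. Hand1 was highest at 2 and 3 UMIs, with 321 and 326 CPM, and returned to 246 CPM (230 to 261) at 4 or more, close to the 249 CPM of cells at 0. Hoxaas3 went from 61.3 CPM at 0 to 18.3 CPM at 1, and then stood at 18.4, 6.52 and 11.5 CPM. Gata6 levelled at 98.6 CPM with 3 Isl1 UMIs and 90.3 CPM with 4 or more, 2 values whose intervals overlap.

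**Figure D3:**
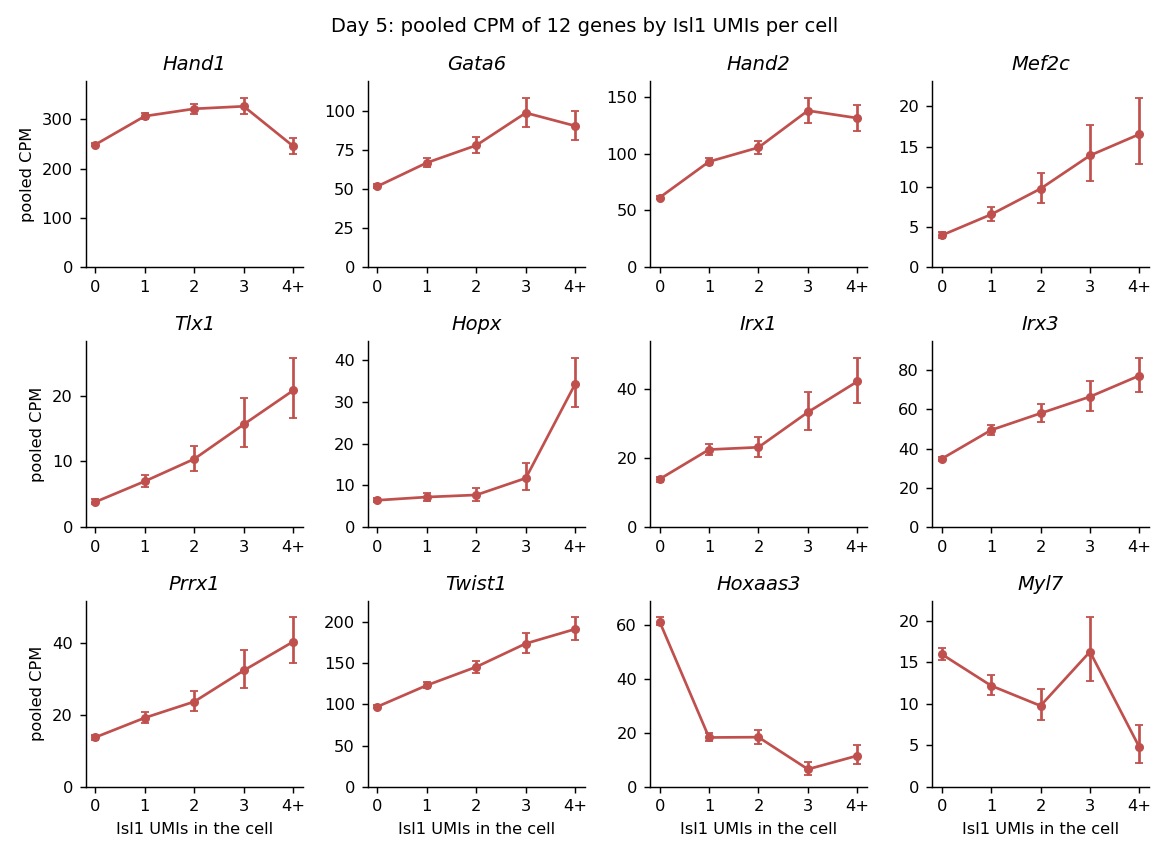
Pooled CPM of 12 genes (vertical axes, each from 0) in day 5 cells with 0, 1, 2, 3 and 4 or more Isl1 UMIs (horizontal axes), with 95% Poisson counting intervals. Mef2c, Tlx1, Irx3, Prrx1 and Twist1 are higher at every step, Hopx is high at 4 or more, at 34.4 CPM, and Hand1 is lower there, at 246 CPM, than at 1 to 3.

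The Isl1-positive cells were not uniform. Splits by Tbx1, Nkx2-5, Tbx5 and Tcf21 separated 7, 5, 34 and 21 cells from the rest, too few for more than a few genes to be read. With Tcf21, Mef2c was at 26.0 CPM in the 21 cells with it and 11.3 CPM in those without (2.30, 1.48 to 3.44), and Wnt2 at 39.4 against 19.04 CPM (2.07, 1.46 to 2.87). Fgf8 (17.3 against 4.03 CPM, 4.30, 2.42 to 7.25) and Hoxc8 (11.5 against 2.35 CPM, 4.91, 2.36 to 9.43) were higher in the 21 cells as well, while Hopx (3.85 against 14.4 CPM, 0.267, 0.0721 to 0.690) and Osr1 (4.81 against 14.9 CPM, 0.324, 0.104 to 0.765) were lower. In the 21 cells these 4 genes had 18, 12, 4 and 5 UMIs, which a few cells could supply. The 21 cells were also deeper, with a median of 40506 against 34190 UMIs. By Hand1, 97 cells had under 3 UMIs and 421 had 3 or more. Cells with under 3 Hand1 UMIs made up 16.4% (12.4 to 21.04%) of those with 2 Isl1 UMIs and 30.1% (21.03 to 40.5%) of those with 4 or more, intervals that meet at their edges. Isl1 itself was at 99.9 CPM in the cells with little Hand1 and 64.5 CPM in the others. The median depth of the cells with little Hand1 was 28705 against 35710 UMIs. Every cell had to hold 2 or more Isl1 UMIs, so a shallower cell enters only at a higher Isl1 CPM. The part of this in the Isl1 levels was not tested.

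In the 97 cells with little Hand1, 66 of 9158 genes (0.721%) were 2-fold higher and 40 (0.437%) at 0.5 or less, relative to the 421. Of the 23 genes that were 2-fold higher in Isl1-positive cells as a whole, Hopx, Irx2, Mef2c, Rbm24, Smpd3 and Tlx1 were past 2-fold again here. Hopx was at 39.6 against 9.47 CPM (4.18, 3.27 to 5.34) and found in 35 of 97 and 69 of 421 cells, Rarb at 19.3 against 7.96 CPM (2.42, 1.75 to 3.33), and Rbm24 at 30.1 against 12.8 CPM (2.36, 1.82 to 3.03). Smpd3, Irx2, Tlx1 and Mef2c had ratios of 2.34, 2.19, 2.19 and 2.08, and Irx1 1.87. Genes of the lower group were past 2-fold here too, Espn at 2.71, Fabp3 at 2.66, Hoxaas3 at 2.64 and Pdgfa at 2.38, with Dppa5a and Rgcc. Against Isl1 0 cells that also had little Hand1, Tlx1 in these 97 cells was at 25.4 against 1.90 CPM, a ratio of 13.4 (9.52 to 18.8), and Mef2c at 21.7 against 3.53 CPM (6.14, 4.48 to 8.35). They had the highest ratios of the genes read in this way, with Hand2 next at 4.38. Other genes were far lower in the 97 cells, Hoxc8 at 2.03 against 50.97 CPM (0.0399), T at a ratio of 0.124 and Lmo2 at 0.233. The Isl1 0 cells with little Hand1 thus differed in makeup, and the part of that in the Tlx1 and Mef2c ratios was not tested.

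The genes at 0.5 or less in the 97 cells included homeobox genes, T-box genes and a keratin. Msx2 was at 18.3 against 87.4 CPM (0.209, 0.156 to 0.275), Msx1 at 75.9 against 165 CPM (0.461, 0.400 to 0.528) and the inhibitory Smad6 at 10.8 against 24.99 CPM (0.434, 0.293 to 0.622). The cardiac T-box genes Tbx20 (4.40 against 14.01 CPM, 0.314) and Tbx3 (19.99 against 54.2 CPM, 0.369), with Gata4 (6.10 against 12.8 CPM, 0.475) and Foxf1 (4.06 against 11.0 CPM, 0.370), were lower as well, as was keratin Krt18 (101 against 240 CPM, 0.419). Of the 18 BMP pathway genes 3 were at 0.5 or less and the median was 0.846, beside 1.02 for all genes. Of 11 measured extraembryonic mesoderm and amnion genes 1 was 2-fold higher and 1 at 0.5 or less, with a median of 0.838. Bmp4 (111 against 95.9 CPM) and Id1 (299 against 281 CPM) were not lower. Hand2 (124 against 117 CPM, 1.06, 0.942 to 1.18) and Gata6 (92.8 against 83.8 CPM, 1.11, 0.970 to 1.26) were at similar levels in both.

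Some of the large ratios in this split rested on few cells. Dppa5a, a pluripotency gene, was at 35.2 against 4.07 CPM, and 10 of the 97 cells held its 104 UMIs. Rgcc was at 48.4 against 6.74 CPM from 15 of the 97 cells, and Actc1 at 14.6 against 3.25 CPM from 9. The split uses Hand1 alone and was drawn for all genes after the listed regulators had been seen, so it is a description of these cells.

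**Figure D4:**
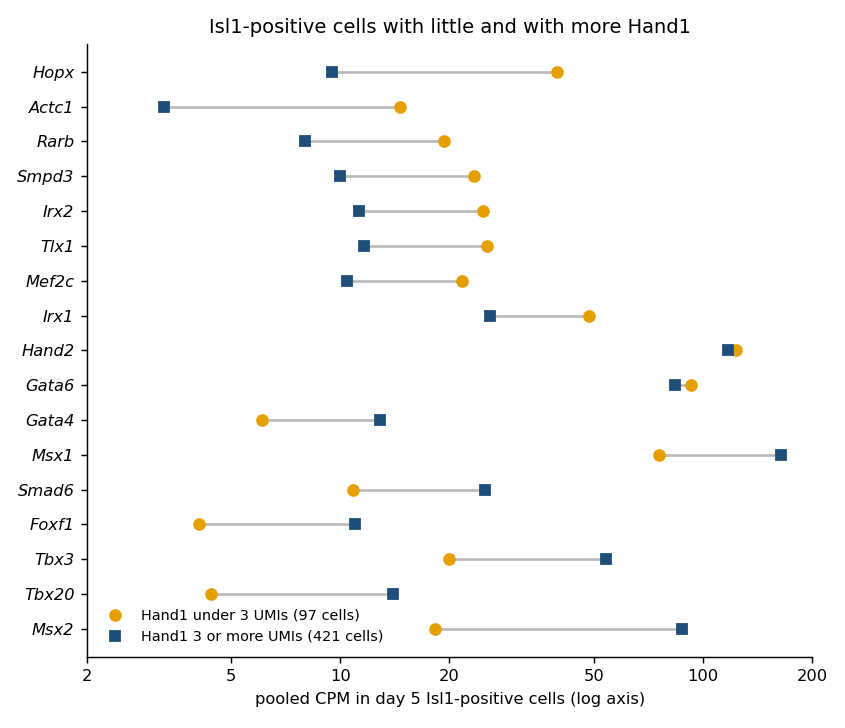
Pooled CPM (log axis) of 17 genes in day 5 Isl1-positive cells with under 3 Hand1 UMIs (orange circles) and with 3 or more (blue squares). Hopx, Rarb, Irx2, Tlx1 and Mef2c are higher with little Hand1, Hand2 and Gata6 are alike in both, and Msx2 and Tbx20 are higher with more Hand1.

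The 52 genes of G2 and M phase had a median ratio of 1.20 with none past 2-fold, and 1.09 against depth-weighted cells. Mki67 was at 112 against 76.5 CPM (1.47), and 1.24 after weighting. The 40 measured S phase genes had a median of 1.02. Dissociation and stress genes, 12 measured, had a median of 0.975.

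The same contrast at the other days gives the other values of these genes. At day 4, 6 genes of 8894 (0.0675%) were 2-fold higher in Isl1-positive cells and 22 (0.247%) at 0.5 or less. At day 6 the numbers were 35 (0.362%) and 61 (0.631%) of 9671, and at day 11 they were 243 (2.35%) and 258 (2.5%) of 10323. Of the 23 higher genes of day 5, 10, 21 and 18 could be measured on days 4, 6 and 11. The ratio was above 1 for 11 of the 18 and for every gene measured on the earlier days. Past 2-fold on the same side were Irx1 and Ptpre at day 4, Mme, Ptpre and Tlx1 at day 6, and Irx1 and Rbm24 at day 11.

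Mef2c was higher in Isl1-positive cells on every day, at ratios of 1.53, 3.04, 1.97 and 1.89 for days 4, 5, 6 and 11. Its level in the positive cells was 21.3, 12.1, 199 and 187 CPM on those days, so the contrast was widest where the gene was lowest. Hand2 (1.30, 1.92, 1.74 and 1.73), Gata6 (1.52, 1.64, 1.31 and 1.42) and Rbm24 (1.78, 2.42, 1.94 and 2.15) were likewise above 1 each day. Hoxc9 was below 1 on each, at 0.158, 0.204, 0.413 and 0.514.

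Myl7 had a ratio below 1 on the earlier days and above it on the later ones, with values of 0.789, 0.642, 1.74 and 2.36 on days 4, 5, 6 and 11, while its level in Isl1-positive cells was 50.5, 10.3, 1606 and 10377 CPM. The sarcomere list had a median ratio of 1.02 for 6 genes at day 4, 0.846 for 12 genes at day 5 or 1.04 against depth-weighted cells, 1.59 for 22 genes at day 6 with 3 past 2-fold, and 2.04 for 24 genes at day 11 with 15 past 2-fold. Bmp4 was above 1 on each day, at 1.20, 1.18, 1.93 and 3.37. Each day is a single library and the sets hold different cells, so a change in ratio between days was not tested.

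**Figure D5:**
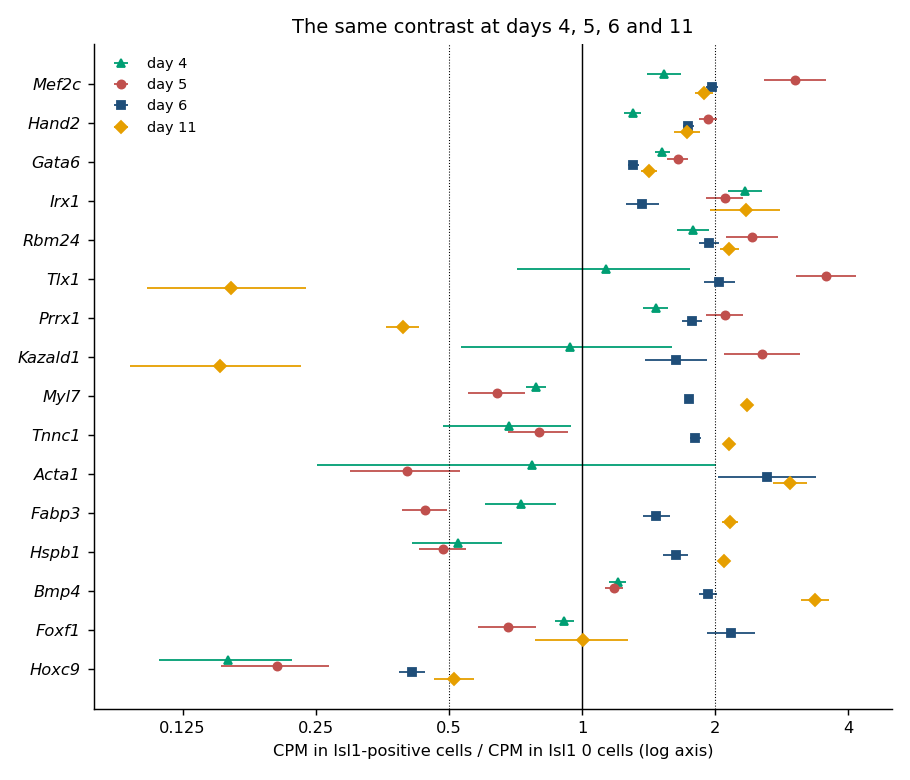
Ratio of pooled CPM in Isl1-positive to Isl1 0 cells at days 4, 5, 6 and 11 for 16 genes, on a log axis with 95% counting intervals; dotted lines mark 2-fold. Mef2c, Hand2, Gata6 and Rbm24 are above 1 on every day, Myl7 is at 0.642 at day 5 and 1.74 at day 6, and Tlx1, Prrx1 and Kazald1 are above 2 at day 5 and under 0.5 at day 11.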

How the data were processed

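Single-cell RNA-seq of gastruloids gave 4 libraries, 1 for each of days 4, 5, 6 and 11. The deposited values are UMI counts per gene and cell, which the authors made with Cell Ranger 3.1.0 on mm10 per the submitters' notes; the matrix headers name 3.1.0 for days 4, 5 and 6 and 6.0.1 for day 11. They come with no cell annotation. The authors' later filters, clusters and doublet calls were not used.

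Cells were selected as stated in the report. Counts were summed over the cells of a set and given per 1000000 (CPM). Ratios carry exact conditional binomial 95% intervals, levels exact Poisson intervals and shares exact Clopper-Pearson intervals, all for counting error only. Genes were compared at a mean of 5 CPM or more, and called at a ratio of 2 or more or 0.5 or less. For shares, each cell was thinned once, without replacement, to 5000 UMIs (157 Isl1 0 cells were shallower) or to 10000. Depth weighting used 20 bins. Doublets were scored against simulated doublets in 30 components, and leaving out the top 8% was an alternative.

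Genes were named if they were selection or marker genes, members of 24 lists with ratios of at least 1.5 or at most 0.67 and 5 CPM in the higher set, listed genes showing that a list did not differ, or among the 15 highest or 15 lowest ratios at 20 CPM or more in the higher set, without mitochondrial, ribosomal and unnamed genes. Other genes past 2-fold, genes of the Hand1 comparisons and those named for the day contrast were chosen after their values were seen. The cells and lists were chosen with earlier results of these data known. The code was tested on simulated data. Gene positions are from GENCODE vM21. Python 3 with numpy, scipy, pandas and scikit-learn was used. A few listed genes are not reported here.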

Additional observations from a re-analysis of the deposited data

Results flagged for a closer look

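Between days, 6 genes past 2-fold one way at day 5 were past 2-fold the other way at day 11, with 1 library for each day, so that the difference was not tested. Tlx1 had a ratio of 3.57 at day 5 and 0.161 at day 11, where Isl1-positive cells held 2.43 CPM (25 UMIs) and Isl1 0 cells 15.1 CPM. Kazald1, its chromosomal neighbour, went from 2.56 to 0.152, with 2.14 against 14.03 CPM at day 11. Prrx1 went from 2.10 to 0.394, and at day 11 the Isl1 0 cells carried it at 137 CPM. In the opposite sense, Fabp3, a fatty acid binding protein of heart muscle, went from 0.442 to 2.16, Hspb1, a small heat shock protein, from 0.484 to 2.10, and Tcea3, a transcription elongation factor, from 0.369 to 2.36. The cells at 0 Isl1 UMIs on the 2 days are different populations, and the part of that in these ratios was not tested.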

How the results depend on the processing

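No paired analysis was possible because each day is 1 library and the groups share no replicate numbers. The share of Isl1-positive cells moved from 9.62% to 3.96% with 3 or more Isl1 UMIs, 27.6% with 1 or more and 1.88% after thinning. Against 23 higher and 30 lower genes, the counts were 47 and 54 with 3 or more Isl1 UMIs, 3 and 22 with 1 or more, 28 and 66 with the mean over cells, 28 and 15 against depth-weighted cells, 45 and 160 at 1 CPM, and 3 and 6 at 20 CPM. Without cells holding a UMI of T, Hoxa7, Hoxa9, Hoxc8, Hoxc9, Kdr, Tal1 or Etv2, 256 of the 518 Isl1-positive and 1926 of the 3898 Isl1 0 cells remained. This alternative, chosen after seeing the data, gives no ratio for those 8 genes, and the counts were 35 and 30. Among Hand1-positive cells, against 17 and 1, they were 22 and 5 with the limit genes at 0, 29 and 16 with 3 or more Isl1 UMIs, 0 and 0 with 1 or more, 16 and 2 without likely doublets, 17 and 3 with the mean over cells, 24 and 3 against depth-weighted cells, 44 and 26 at 1 CPM, and 1 and 0 at 20 CPM. The cause was not tested beyond what each limit changes by construction. Among ratios past 2-fold, Rgcc turned to 1.05 against depth-weighted cells. Lmo2 and Ctla2a turned to 1.04 and 1.30 without the cells holding a UMI of the 8 genes above. Of ratios nearer 1, Actc1 (1.05) crossed by weighting, and Hoxd4 (1.21) and Hoxd8 (1.42) without those cells. Between cells with 2 and with 1 Isl1 UMIs, also chosen after seeing the data, it turned for Hoxaas3 (1.01), Dppa5a (1.65), Rgcc (1.05), Fgf8 (1.54), Tal1 (1.36), Hoxc4 (1.05), Naaa (1.02), Sema6a (1.01), Hhex (1.11), Ppp1r14c (0.954) and Alx1 (0.947), and nearer 1 for Dll3 (1.24), Wnt4 (1.09), Dusp3 (1.06), Hoxb3 (1.02), Rarg (1.01) and Jag2 (1.01). Of the list medians 187 values stayed within 1.5 times and 2 moved, Hox genes (1.13) and streak and tailbud genes (0.546). Both moved without the cells holding a UMI of those 8 genes, some of which belong to these lists. Doublet scoring left out 34 of the 518 cells, 6.56%.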
